A study of Capra hircus with 6 samples.

Results

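The fibroblast growth factor (FGF) genes that act in the hair cycle were examined in cultured dermal papilla cells of the cashmere goat. The 10 genes were taken by name from the 15944 genes of the deposited count table, before any filter on level. They comprise 6 ligands (FGF2, FGF5, FGF7, FGF9, FGF10 and FGF18) and 4 receptors (FGFR1, FGFR2, FGFR3 and FGFRL1). The row for FGFR3 carries a LOC number and was found by its gene symbol.

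FGFs are secreted or released proteins that bind heparan sulfate and a receptor tyrosine kinase together. The active receptor recruits the docking protein FRS2 and switches on Ras and the ERK kinases, which in turn induce their own inhibitors. In hair follicles, FGF7 and FGF10 from the dermal papilla reach the neighbouring epithelium through the IIIb form of FGFR2. FGF5 is best known for ending the growth phase, since animals without it have long hair, and FGF18 is known for holding follicles at rest.

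The cells were wild-type primary cultures (secondary hair follicle dermal papilla cells, SHF-DPCs) from scapular skin of 3-year-old Albas cashmere goats, taken in the growth season and used at passages 4 to 7. The ATRA-treated group (3 libraries) received all-trans retinoic acid, the vitamin A metabolite that activates the retinoic acid receptors, at 100 µM for 24 h, and the control group (3 libraries) received an equal volume of medium. The study names 3 animals as the source of the sequenced cells, and the labels do not say which control and treated cultures shared an animal. No batch that would separate the libraries is given in the labels used here. The follicle epithelium on which papilla ligands act was not sampled as a tissue of its own.

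Each library held between 35532339 and 38012771 counted reads. Replicates of a group differed by more than sampling noise, with a chi-square per degree of freedom of 6.31 to 9.23 between control libraries. Between ATRA libraries it was 19.2 and 17.9 for the pairs with replicate 2, and 5.16 for replicates 1 and 3. Levels are given as normalized CPM, the reads of a gene scaled to a common library total with TMM factors and not corrected for transcript length. A gene was called when edgeR's quasi-likelihood test gave an adjusted p under 0.05 and the log₂ fold change (log₂FC, ATRA against control) was beyond 1 in size. By this rule 13.7% of the 12588 genes tested were higher (1729 genes) and 17.3% were lower (2173 genes) with ATRA. The scaling matters for small changes. When library size alone was used, the median log₂FC of all genes went from 0.04 to 0.52, and 3389 genes were called higher and 1471 lower. Of 18 mesenchymal and dermal papilla markers, 13 could be tested. Under TMM scaling 10 of the 13 were called lower and 0 higher, against 17.3% and 13.7% of all genes tested. When the fold threshold was dropped and the limit on adjusted p kept, all 13 markers fell, against 38.7% of all genes tested. The summed level of the 18 markers was 59182 to 62114 CPM in the control group and 2864 to 2944 CPM with ATRA, led by COL1A1 and VIM. The papilla markers PROM1, ALPL and CORIN had at most 1 count in any library, including the control libraries. CRABP1 had 1 to 8 reads in control libraries and 0 to 3 with ATRA. SOX2 went the other way, with 0 to 5 reads in control libraries and 9 to 16 with ATRA. It had too few reads to be tested. Others were present in the control group, with means of 6582 CPM for ACTA2, 1641 for VCAN and 275 for RSPO3. TBX18 was at 116, LEF1 at 16.1 and HEY1 at 5.75 CPM there. The paper reports positive staining of these cells for α-SMA and CD133, the proteins of ACTA2 and PROM1. A lower level in these cultures can come from fewer cells of a type or from less RNA per cell, and these cannot be told apart.

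Of the 10 FGF genes, FGF2, FGF9, FGFR3 and FGFRL1 rose past the threshold with ATRA, and FGF10 and FGFR2 fell past it. FGFR1 rose by less than the fold threshold, and FGF7 moved little. FGF5 and FGF18 were at or near 0 and were not tested, because too few libraries had enough reads. FGF9 passed the filter only through the ATRA libraries, so its call is a description and no p is given for it. The control and ATRA libraries did not overlap for any of the 8 tested genes, as was the case for 80.1% of all genes tested, so this was the usual case in these data.

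**Figure D1:**
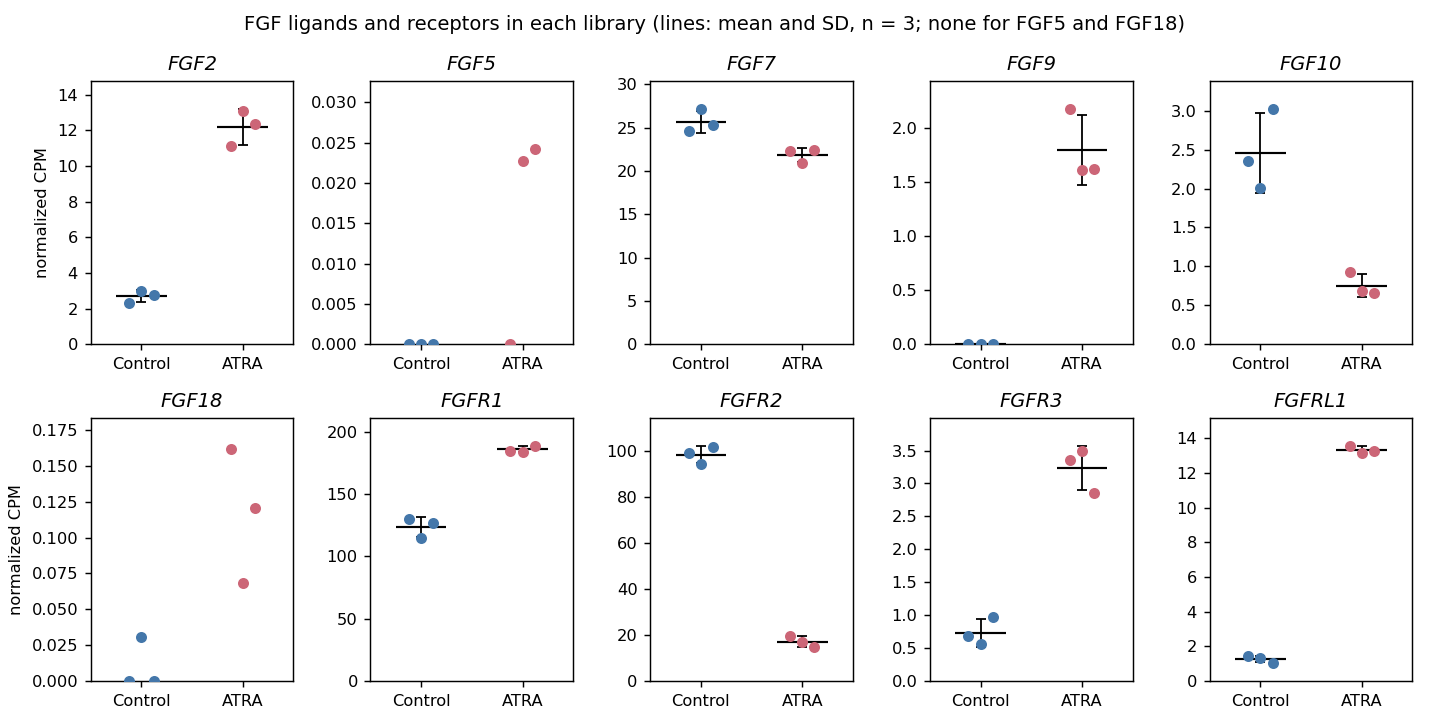
Normalized CPM (vertical axes, each from 0 with its own scale) of the 10 FGF genes in the 3 control and 3 ATRA libraries. Points are libraries and lines give the mean and SD (n = 3), left out for FGF5 and FGF18, which had at most 7 reads in a library. FGF2, FGF9, FGFR1, FGFR3 and FGFRL1 sit higher with ATRA, and FGF7, FGF10 and FGFR2 sit lower, FGF7 under TMM scaling but not with library size only.

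Among the ligands, FGF2, a broadly acting mitogen of mesenchymal and endothelial cells, was 4.51-fold higher with ATRA. The control libraries had 2.32, 3.00 and 2.77 CPM and the ATRA libraries had 11.1, 13.1 and 12.4 CPM. Each ATRA library thus held several times the level of any control library. The log₂FC was 2.17 (standard error 0.133, 95% interval 1.89 to 2.45, adjusted p = 2.89e-11). NUDT6, which lies next to FGF2 in the goat assembly ARS1.2 and is known in other mammals as its antisense neighbour, also rose (log₂FC 1.36, standard error 0.167, adjusted p = 5.94e-07). No gene span overlaps that of FGF2 in ARS1.2. The annotation and strand setting of the counting are not given in the sources used here, and whether the 2 genes shared reads was not tested. The number of FGF2 reads per NUDT6 read was between 1.06 and 1.73 in the control libraries and between 2.07 and 2.71 in the ATRA libraries, so FGF2 reads gained on NUDT6 reads.

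FGF9, a ligand known for its part in new follicle formation after wounding, had no read in any control library. It had 94, 71 and 67 reads in the ATRA libraries, a level of 2.17, 1.61 and 1.62 CPM. Set against 3 reads in a control library as the floor, the level with ATRA was at least 18.6-fold higher for FGF9. The endothelial marker PECAM1 moved in the same way, from 0 reads in the control libraries to between 206 and 340 with ATRA, while CDH5, another defining endothelial gene, had at most 1 read in a library and KDR had 5 to 10 reads in control and 0 to 2 in ATRA libraries. Of the 9 endothelial markers listed, 6 were in the table, and their summed level was 82.4 to 90.3 CPM in the control group and 15.9 to 17.6 CPM with ATRA. That sum was mostly ERG, which went from 85.2 to 9.20 CPM, while TEK went from 0.619 to 1.13 CPM and VWF was at 0.229 and 0.241 CPM. The 6 leukocyte markers in the table summed to 9.74 to 13.4 CPM in the control group and 41.4 to 44.5 CPM with ATRA. CD14 (6.91 and 31.3 CPM) and CD68 (4.14 and 10.97 CPM) made up most of that sum. LAPTM5 went the other way, with 16 to 17 reads in control libraries and 4 to 12 in ATRA libraries. It passed the filter only through the control libraries, so no p is given for it. CSF1R, CD3E and AIF1 had at most 7 reads in a library. The 3 melanocyte markers summed to 16.1 to 17.6 CPM and 32.2 to 39.0 CPM, of which MITF rose from 13.0 to 32.7 CPM, PMEL was at 4.01 and 2.15 CPM and TYRP1 had at most 1 read in a library. The part of these markers' cells in the FGF9 values was not tested.

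FGF7 and FGF10, the papilla ligands of the epithelial form of FGFR2, differed in size of change. FGF10 had 2.35, 2.01 and 3.02 CPM in the control libraries and 0.925, 0.680 and 0.652 CPM with ATRA. Every ATRA library lay below every control library, on 65 to 97 reads in control and 27 to 40 reads in ATRA libraries. FGF10 fell with a log₂FC of -1.70, to a level 3.26 times lower (standard error 0.251, 95% interval -2.23 to -1.18, adjusted p = 5.89e-06).

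FGF7, also called keratinocyte growth factor, had 24.6, 27.1 and 25.2 CPM in the control libraries and 22.3, 20.9 and 22.4 CPM with ATRA. The groups lay close together without overlapping. The log₂FC was -0.23 (standard error 0.0776, 95% interval -0.39 to -0.07, adjusted p = 0.0114), and its sign depends on the scaling. With library size only it was 0.25 (adjusted p = 0.00684), and with upper-quartile scaling it was -0.15 (adjusted p = 0.0783). Relative to the median of all genes tested, FGF7 was 0.27 lower on the log₂ scale under TMM and under library size only alike. FAM227B, whose span overlaps that of FGF7 in ARS1.2, had a log₂FC of -0.17 with a standard error of 0.379 (adjusted p = 0.678). A ratio taken within a library does not depend on the scaling. There were 8.36 to 13.5 FGF7 reads per FGF10 read in the control libraries and 24.2 to 34.3 with ATRA, so FGF7 kept its level better than FGF10 did.

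FGF5, the ligand that ends the growth phase, had 0 reads in all control libraries and 0, 1 and 1 reads in the ATRA libraries. Both groups are under the floor of 3 reads per library, which corresponds to 0.0927 to 0.0967 CPM in the control libraries, so no change was detectable at this depth. FGF18 had 0, 1 and 0 reads in the control libraries and 7, 3 and 5 reads with ATRA. The ratio of the group totals, 15 reads against 1 and scaled by library, was 11.1 with an exact counting interval from 1.71 to 469. All intervals from reads cover counting error only.

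The receptors moved apart. FGFR1, the main FGF receptor of mesenchymal cells, had 130, 115 and 127 CPM in the control libraries and 185, 184 and 189 CPM with ATRA. The ATRA libraries lay within a narrow range above all control libraries, and the mean went from 124 to 186 CPM (log₂FC 0.59, standard error 0.0587, 95% interval 0.46 to 0.71, adjusted p = 3.94e-08). With library size only the log₂FC was 1.06, just past the fold threshold.

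FGFR2, the receptor whose alternative forms separate epithelial from mesenchymal ligands, had 98.9, 94.3 and 101.7 CPM in the control libraries and 19.3, 17.0 and 14.7 CPM with ATRA. The highest ATRA library held far less than the lowest control library. The log₂FC was -2.53 (standard error 0.0850, 95% interval -2.71 to -2.35, adjusted p = 3.37e-15), a level 5.78 times lower. Counts per gene do not separate the IIIb form from the IIIc form of FGFR2. Epithelial genes were scarce in both groups, since the summed level of the 10 keratinocyte and epithelial markers in the table was 11.7 to 13.1 CPM in the control group and 9.41 to 10.99 CPM with ATRA. The basal keratin KRT5 had 2 to 7 reads per control library and 0 in each ATRA library, and KRT14 had 10 to 20 and 0 to 3 reads. The epithelial splicing regulator ESRP1 had 3 to 6 and 1 to 3 reads, while the related gene ESRP2 was at 8.52 CPM in the control group and 4.39 CPM with ATRA (log₂FC -0.96, adjusted p = 2.07e-06). KRT10, a keratin of differentiated epidermis, went the other way, from 3.17 to 5.62 CPM (log₂FC 0.82). The other 5 of these markers had at most 5 reads in a library. The part of epithelial cells in the fall of FGFR2 was not tested.

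FGFR3, a receptor best known for restraining growth of cartilage, was low in both groups. It had 0.677, 0.556 and 0.965 CPM in the control libraries and 3.35, 3.49 and 2.85 CPM with ATRA. All ATRA libraries exceeded all control libraries, with a log₂FC of 2.14 (standard error 0.235, 95% interval 1.64 to 2.63, adjusted p = 1.38e-07).

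FGFRL1 binds FGFs and heparin but lacks the tyrosine kinase domain of the other receptors. It had 1.42, 1.33 and 1.06 CPM in the control libraries and 13.6, 13.2 and 13.3 CPM with ATRA, a 10.5-fold rise (log₂FC 3.39, standard error 0.141, 95% interval 3.10 to 3.69, adjusted p = 8.58e-14). Both groups were tight and far apart. Of all genes tested, 97.8% had a lower log₂FC than FGFRL1. FGFR2, at the other end of the set, had 6.02% of the genes below it.

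**Figure D2:**
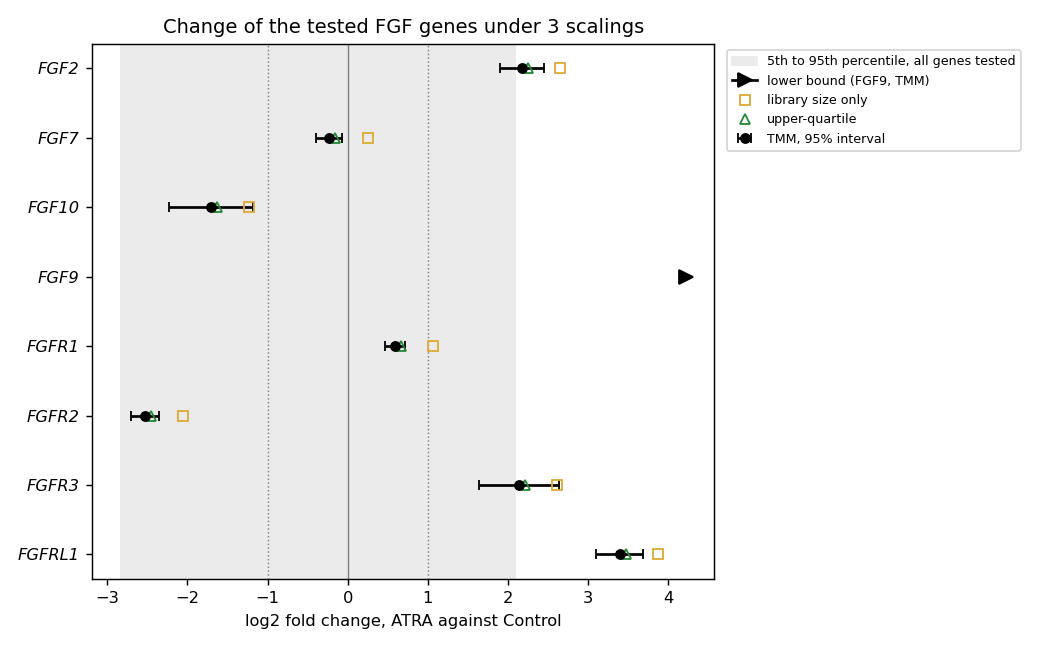
Log₂ fold change (horizontal axis, ATRA against control) of the 8 FGF genes tested, as black points with 95% intervals under TMM scaling, green triangles under upper-quartile scaling and yellow squares with library size only. The arrowhead for FGF9 is a lower bound (18.6-fold), the grey band spans the 5th to 95th percentile of all genes tested (-2.83 to 2.09) and dotted lines mark the fold threshold. FGF7 is the gene whose points lie on both sides of 0.

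The receptor reads of each library were also compared as a composition, which is free of the scaling between libraries. The shares are not corrected for transcript length, so each gene is compared with itself across groups. Over FGFR1, FGFR2, FGFR3, FGFR4 and FGFRL1 there were 6828 to 7413 reads in a control library and 9091 to 9611 in an ATRA library. In control libraries FGFR1 took 55.3% ± 0.952 (SD, n = 3) of them, and in ATRA libraries 84.7% ± 1.19 (SD, n = 3), a difference of 29.4 percentage points. The control values of 56.3%, 54.4% and 55.1% lay apart from the ATRA values of 83.6%, 84.5% and 85.9% (two-sided exact permutation test of the shares, p = 0.1, the lowest value that 3 libraries against 3 allow). The share of FGFR2 went from 43.8% ± 0.962 (SD, n = 3) to 7.74% ± 1.02 (SD, n = 3). FGFRL1 went from 0.567% ± 0.0944 to 6.07% ± 0.0452 (SD, n = 3 each). There were 1.22 to 1.32 FGFR1 reads per FGFR2 read in the control libraries and 9.57 to 12.8 in the ATRA libraries. The receptor reads were thus divided between FGFR1 and FGFR2 in the control group and were mostly on FGFR1 with ATRA.

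Over the 13 extracellular ligand genes in the table there were 1022 to 1132 reads per control library and 1598 to 1689 per ATRA library. The share of FGF7 went from 75.2% ± 2.13 (SD, n = 3) of them to 56.8% ± 1.79 (SD, n = 3). The share of FGF2 was 7.88% ± 0.774 and 31.6% ± 2.76 (SD, n = 3 each), and that of FGF10 was 7.22% ± 1.51 and 1.95% ± 0.382 (SD, n = 3 each). FGF9 took 4.67% ± 0.820 (SD, n = 3) of the ligand reads with ATRA. These shares are a description and were not tested.

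**Figure D3:**
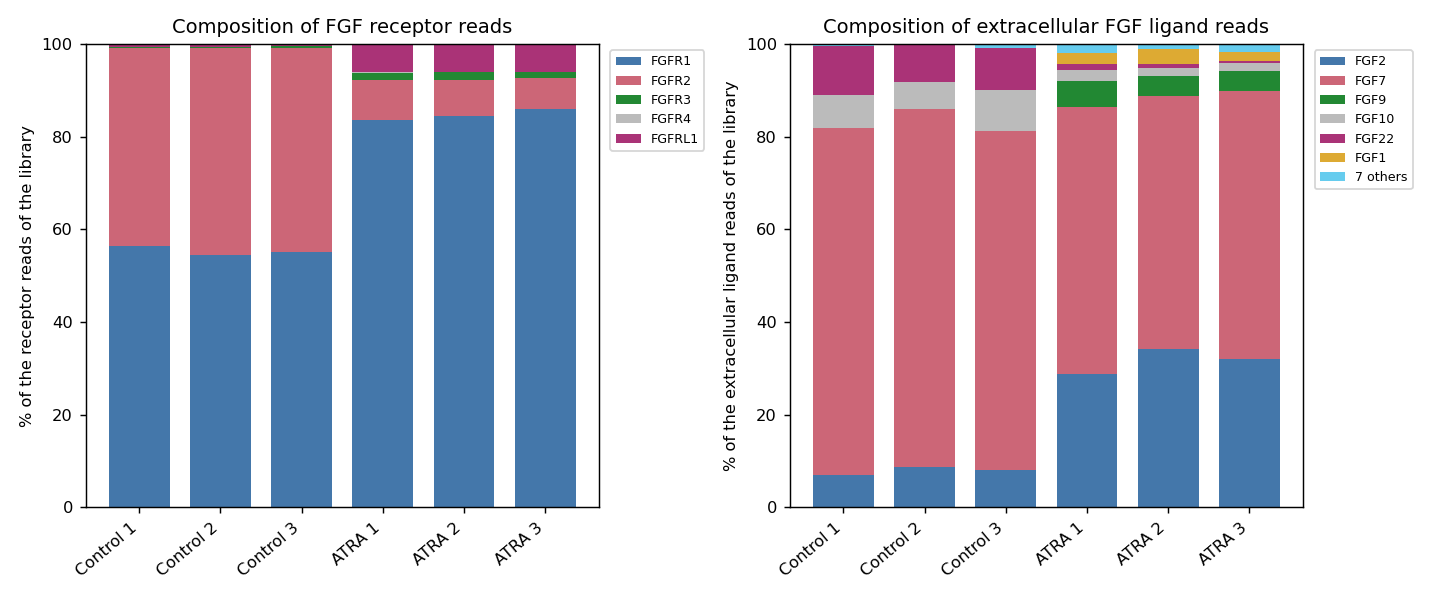
Share of reads (vertical axes, % within each library) on each FGF receptor gene, left, and each extracellular FGF ligand gene, right, with 1 bar per library. FGFR1 fills 54.4% to 56.3% of the control bars and 83.6% to 85.9% of the ATRA bars, and the FGF2 part of the ligand bars is larger in every ATRA library than in any control library.

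Of the 17 other FGF ligand and receptor genes listed, 11 were in the table, 6 were not analysed here and 4 could be tested. FGF22, a ligand of the FGF7 and FGF10 group, had 3.12 CPM in the control group and 0.340 CPM with ATRA, and its log₂FC was -3.18 (standard error 0.266, adjusted p = 3.15e-09). It fell from 90 to 107 reads per control library to 10 to 19 reads per ATRA library, so the groups were wide apart. The other tested genes, named here after their values were seen, were FGF1, FGF11 and FGF21. They were called higher, but passed the filter only through the ATRA libraries, so their values are given as a description without p. FGF1, the ligand that binds every FGF receptor, had no read in any control library and 43, 53 and 31 reads with ATRA, a level at least 10.2-fold higher. FGF11, an FGF that stays inside the cell, went from 1 or 2 reads per control library to between 17 and 27, and FGF21, a circulating metabolic hormone, from between 1 and 5 to between 13 and 20. FGFR4, the remaining kinase receptor, had at most 6 reads in any library.

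Heparan sulfate carries FGFs to their receptors. Of 25 genes for its core proteins and enzymes, 23 were in the table and 21 were tested, of which 13 were called lower and 2 higher, against 17.3% and 13.7% of all genes tested. HS6ST2, among the 13, passed the filter only through the control libraries, with 23 to 32 reads there and 3 to 5 with ATRA. The median log₂FC of the 21 genes was -1.36, against 0.04 for all genes tested. The 4 genes with the largest falls among those of at least 1 CPM on average were cell surface core proteins. SDC3 had a log₂FC of -3.94 (standard error 0.0946), GPC4 -3.58 (0.0744), SDC1 -3.08 (0.0583) and GPC1 -2.27 (0.0633). SDC1 went from 772 to 91.1 CPM and GPC1 from 696 to 144 CPM. SDC4, another syndecan, rose from 167 to 431 CPM (log₂FC 1.37, adjusted p = 6.31e-14), and GPC2 rose from 1.46 to 6.26 CPM (log₂FC 2.10, adjusted p = 1.25e-09). Single core proteins of the same family therefore went in opposite directions.

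Among 12 genes for klothos, FGF-binding proteins and membrane partners of the receptors, 7 were in the table and 5 were tested, with 3 called lower and 1 higher, against 17.3% and 13.7% of all genes tested. The adhesion molecules CDH2 and NCAM1, which can associate with FGFR1, fell from 513 to 34.3 CPM (log₂FC -3.90, adjusted p = 8.20e-19) and from 80.3 to 19.1 CPM (log₂FC -2.07, adjusted p = 2.35e-15). FLRT2, a membrane protein that binds FGF receptors, fell from 330 to 44.3 CPM (log₂FC -2.90, adjusted p = 3.74e-18). FLRT3, its relative, rose from 117 to 307 CPM (log₂FC 1.39, adjusted p = 4.32e-12).

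The 21 genes that carry the signal from the receptor to ERK were all tested and changed little in size. At an adjusted p under 0.05 without a fold threshold 7 were higher and 9 lower, against 40.9% and 38.7% of all genes tested. SHC1, an adaptor protein, was the one gene called, going from 316 to 153 CPM (log₂FC -1.05, standard error 0.0531, adjusted p = 1.79e-12), and it lost the call with upper-quartile scaling or library size only. None was called higher by edgeR under TMM, by DESeq2 or by the other test run, and 7 were higher at an unadjusted p under 0.05 without the fold threshold. Several lay near that threshold, among them the exchange factor SOS1 (log₂FC 0.998), the kinase BRAF (0.979) and the docking protein FRS3 (0.94), which were named after their values were seen.

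Of 20 genes known to be induced by FGF and ERK, 6 were called higher and 1 lower, against 13.7% and 17.3% of all genes tested, and the median log₂FC of the 20 was 0.55, against 0.04. The ERK feedback genes DUSP4 and SPRY4 moved most. DUSP4, a phosphatase that acts on ERK, went from 3.03 to 87.9 CPM (log₂FC 4.86, standard error 0.105, adjusted p = 5.10e-18), and SPRY4, an inhibitor of Ras activation, from 1.97 to 40.02 CPM (log₂FC 4.34, standard error 0.129, adjusted p = 5.25e-16). SPRY1 rose with a log₂FC of 1.57 and IER3, an immediate early gene, with 2.32. CCND1, the cyclin of early G1, fell from 262 to 73.9 CPM (log₂FC -1.83, adjusted p = 5.86e-16). Members of the DUSP family differed here too, since DUSP6 was lower (log₂FC -0.87, adjusted p = 1.17e-09). SPRED1 (log₂FC -0.01, standard error 0.0873) and EGR1 (log₂FC -0.10, standard error 0.0692) had an adjusted p of 0.931 and 0.172. DUSP6, SPRED1 and EGR1 were named after their values were seen. Other growth factor receptors also signal to these genes, and the counts do not show which receptor was active.

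**Figure D4:**
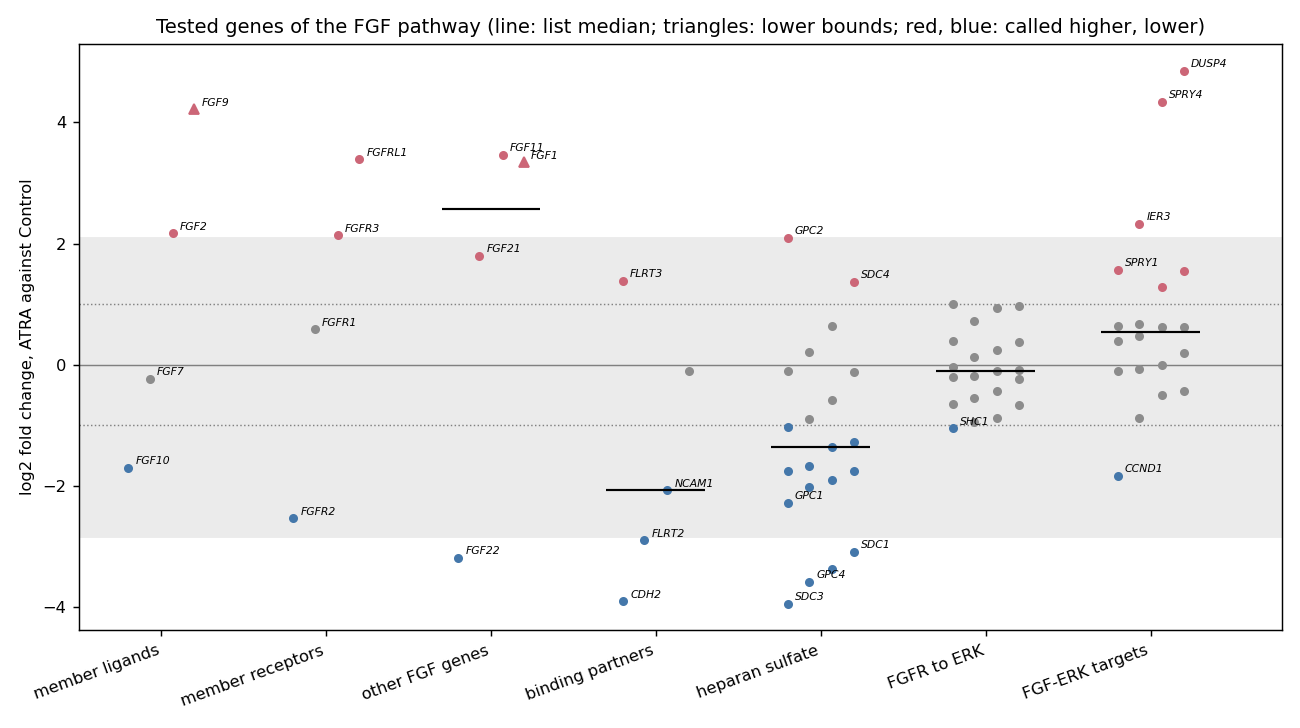
Log₂ fold change (vertical axis, ATRA against control) of every tested gene in 7 lists of the FGF pathway, with 1 point per gene, red for called higher, blue for called lower and grey for not called. Black lines give the median of the 5 lists that are not the 10 FGF genes, triangles are lower bounds for genes without reads in the control libraries, the grey band spans the 5th to 95th percentile of all genes tested and dotted lines mark the fold threshold. The heparan sulfate points lie mostly below -1. DUSP4 and SPRY4 lie highest among the points that are not lower bounds, and FGF9 and FGF1 can lie higher than drawn.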

How the data were processed

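RNA-seq of SHF-DPCs started from poly(A) RNA, with fastp and TrimGalore for read cleaning. The authors deposited whole-number read counts per gene, not normalized, with GO and KEGG annotation. The processing notes name HISAT2, featureCounts and DESeq2. The genome build, annotation and strand setting are not given in the sources used here.

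filterByExpr kept 12588 of 15944 genes. After TMM scaling, each was put to the quasi-likelihood test of edgeR (two-sided, robust, 3 against 3, no covariate), with Benjamini-Hochberg adjustment over all genes tested. The paper's methods use R's t.test function, and Welch's test on log2(CPM + 1) was an alternative. A standard error is the size of the log₂FC divided by the root of its F statistic, and the prior count was 0.125. Further alternatives were RLE, upper-quartile and library-size scaling, no filter, a filter of at least 1 CPM in at least 3 libraries, DESeq2, a replicate block, kinase receptors alone for the shares and leaving out each library. The p-values measure the spread between these cultures. The 10 genes and all lists were chosen with earlier results of these data known. Outside the 10 genes, the genes named were up to 4 per list and direction, called, with at least 1 CPM on average and no overlap between the groups. Cell type markers and the genes said to be named after their values were seen, with FGFR4, HS6ST2, NUDT6 and FAM227B, stand outside that rule. Listed genes were matched by identifier, then by gene symbol. Neighbouring genes come from RefSeq names on ARS1.2. In a test on simulated data edgeR recovered 200 of 200 changed genes (true log₂FC of 2 in size, 12588 genes) with 0 unchanged genes called. DESeq2 also recovered 200, and Welch's test 150. Only 200 genes differed there, while 1729 genes were called higher and 2173 lower in the cultures. The choice of scaling with that many genes called was not tested. Figures were drawn with matplotlib 3.10.9 on Python 3.11.15, and tests were run with DESeq2 1.42.0, edgeR 4.0.16 and limma 3.58.1 on R 4.3.3.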

Additional observations from a re-analysis of the deposited data

How the results depend on the processing

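The calls of the 10 FGF genes held in nearly every alternative. FGF2, FGFR3 and FGFRL1 were called higher, and FGFR2 lower, under RLE, upper-quartile and library-size scaling, other filters, DESeq2 and Welch's test. The same held with the replicate block and with each library left out. FGF9 was also called higher in each of these, but it had no read in any control library, so this is a description. The counts of genes higher given below include FGF9. FGFR1 joined the genes called higher with library size only, and FGF18 without a filter (adjusted p = 0.0200), on 1 read in the control group. FGF10 was not called by Welch's test with its pseudocount of 1, which left 1 gene lower instead of 2. With the replicate number as a block, 4 genes were higher and 2 lower, against 1724 and 2176 of the 12588 genes tested. The deviations of same-numbered libraries correlated at 0.0892, 0.0299 and -0.0764, so the numbers were not taken as pairs, and whether the cultures shared animals is not given. Without a fold threshold 5 of the FGF genes were higher and 3 lower, against 40.9% and 38.7% of all genes tested. The log₂FC of FGF7 reversed to 0.25 with library size only. Leaving out each library gave 4 higher and 2 lower every time. Over all genes tested it gave 1713 to 1807 higher and 2187 to 2244 lower.

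Among the 21 genes from receptor to ERK, 3 were called higher and 0 lower with upper-quartile scaling, and 4 and 0 with library size only. Of the 12588 genes tested, 1899 were higher and 2034 lower with upper-quartile scaling, and 3389 and 1471 with library size only. Leaving out 1 library gave 0 to 2 of the 21 genes higher, the most without ATRA replicate 3. It gave 1 to 2 lower, the most without ATRA replicate 2. With library size only, 10 of the FGF and ERK target genes were called higher, against 6, while the number over all genes went from 1729 to 3389. Over the kinase receptors alone, the difference in FGFR1 share was 34.6 percentage points, and leaving out each library kept the difference over all 5 receptors between 28.8 and 30.0. Depth limits FGF5 and FGF18, where a few reads decide the value.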

Other observations

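The annotation deposited beside the counts covers the FGF genes unevenly. KEGG places 9 of the 10 genes, all but FGFRL1, in the MAPK, Ras, Rap1 and PI3K-Akt signaling pathways. The GO term for the FGF receptor signaling pathway is attached to 41 genes of the table but to 3 of the 10 (FGF5, FGF7 and FGF18), and FGF2, FGF9, FGF10, FGFR1, FGFR2 and FGFR3 carry no GO term there. Of the 33 genes of that term that were tested, 2 were called higher and 7 lower with ATRA, against 13.7% and 17.3% of all genes tested, with a median log₂FC of -0.12 against 0.04 for all genes tested.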
